A study of Mus musculus with 6 samples.

Results

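Genes of osteoclast commitment, fusion and bone resorption were followed in stimulated bone cell cultures, namely *Nfatc1*, *Oscar*, *Calcr*, *Dcstamp*, *Ocstamp*, *Atp6v0d2* and *Acp5*. They were taken by gene symbol, and all 7 were found once each among the 56748 genes of the count table. Of the 7, 5 had enough counts to be tested, and *Calcr* and *Dcstamp* did not. RNA had been sequenced from 6 cultures of primary cells isolated as osteocytes from the long bones of mice that were 7 weeks old by the methods. The 3 WT cultures came from C57BL/6J mice by the methods of the stimulation (C57BL/6 in those of the isolation), and the 3 cultures labelled cKO came from *Gsdmd* fl/fl; DMP1-Cre mice, in which Cre is driven by the promoter of dentin matrix protein 1, a gene of late osteoblasts and osteocytes. All 6 were grown for 7 days and then were stimulated with LPS at 10 ng/mL for 3 h and then with aluminum hydroxide at 20 µg/mL for 3 h, with no unstimulated culture among the libraries analysed here.

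Osteoclasts are giant cells of the monocyte lineage that dissolve bone. RANKL, bound by its receptor RANK, together with costimulation through immunoreceptors such as OSCAR, switches on the transcription factor NFATc1, which drives the genes for cell fusion and resorption. DC-STAMP and OC-STAMP are membrane proteins needed for precursors to fuse, the d2 subunit takes part in the proton pump that acidifies the resorption pit and also in fusion, and *Acp5* encodes tartrate-resistant acid phosphatase, the enzyme behind TRAP staining. The calcitonin receptor marks the mature osteoclast, and calcitonin acts through it to halt resorption.

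Of the 5 tested genes, *Atp6v0d2* and *Acp5* rose in the libraries labelled cKO, by 3.58-fold and 2.36-fold, and none fell. *Nfatc1* was abundant and did not pass the test, with overlapping groups. *Ocstamp* and *Oscar* were near the lower end of detection and neither passed the test, while *Dcstamp* and *Calcr* were at 0 to 8 counts per library. A gene was called at an adjusted p-value below 0.05 and a log2 fold change of at least 1 in size, in a quasi-likelihood test by edgeR, adjusted by Benjamini-Hochberg over 17146 genes, of which 6.56% were called higher and 4.64% lower. Nothing in the sample records says that the cultures came from separate animals, so that p-values measure the spread between these libraries, which may be technical.

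The libraries differed in more than the labelled deletion. Their totals lay between 39566835 and 49734046 counts, so that 3 counts corresponded to 0.0605 to 0.0773 CPM, the count per 1e6 counts of the scaled library. *Gsdmd*, the deleted gene, went against its label, with 549 to 699 counts in WT against 885 to 1045 under the cKO label (log2 fold change 0.69), on a count that pools the floxed exons with the rest, so each direction below rests on the label. *Xist*, expressed from the inactive X chromosome, had 0 to 4 counts in WT against 44817 to 51216 under the cKO label, and the Y-linked *Ddx3y* had 4033 to 5455 and 0, so that sex and genotype cannot be told apart. Of 7 osteocyte markers, *Sost* and *Dkk1* were at 0 in every library, *Mepe* at 0 to 2, *Dmp1* at 0 to 6 and *Phex* at 2 to 22 counts. *Fgf23* had 14, 34 and 8 counts in WT and 6, 0 and 0 under the cKO label. *Pdpn*, which other cells also express, alone was tested, at 234 ± 7.59 CPM in WT and 193 ± 3.57 CPM otherwise (SD, n = 3 each; log2 fold change -0.28, edgeR, adjusted p = 2.99e-05). All 14 tested of 15 macrophage markers were called higher in the libraries labelled cKO (median log2 fold change 2.98), and their summed level spanned 1206 to 1357 CPM for WT and 6397 to 6702 CPM for the others, with none at 0 throughout. The part of these cells in the results below was not tested, and in bulk RNA fewer cells of a type cannot be told apart from less RNA per cell.

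**Figure D1:**
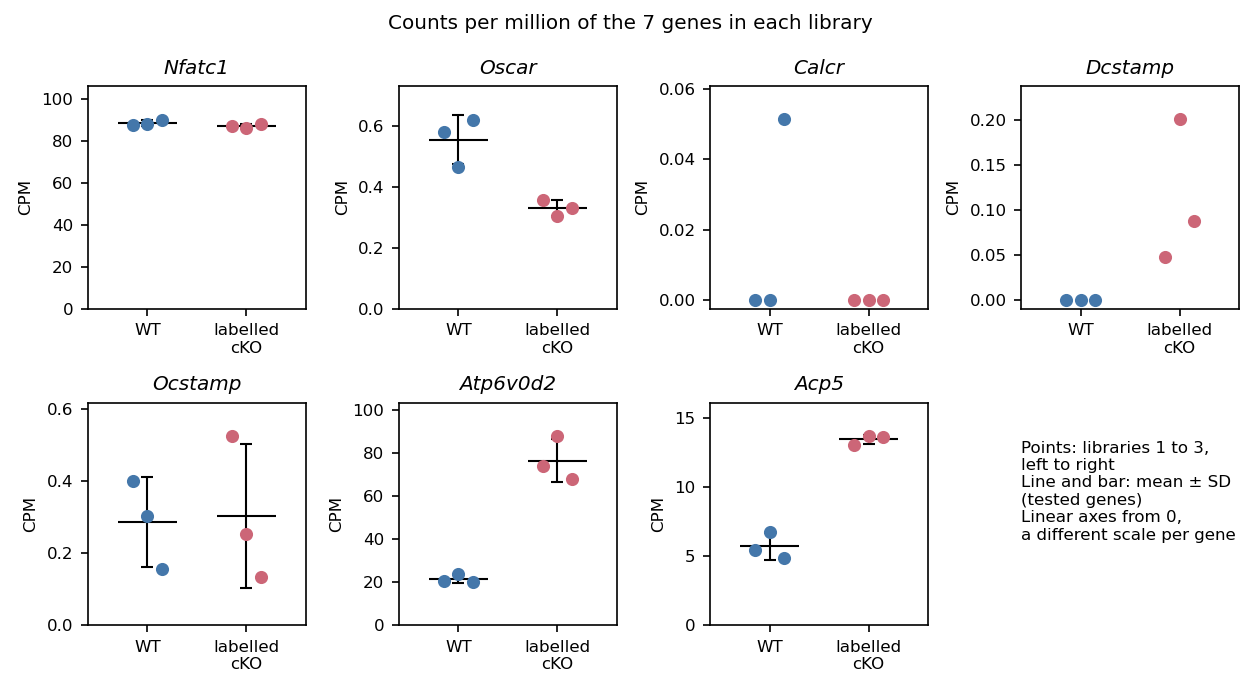
CPM of the 7 genes (vertical axes, a different linear scale for each) in the 3 WT libraries and the 3 libraries labelled cKO; points are libraries, and lines with bars are means ± SD for the 5 tested genes. For *Atp6v0d2* and *Acp5* every library labelled cKO lies above every WT library, for *Nfatc1* and *Ocstamp* the groups overlap, and *Calcr* has a single library above 0.

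*Nfatc1* (ENSMUSG00000033016), the master regulator of the osteoclast programme, was the most evenly expressed of the 7. It lies on the minus strand of chromosome 18 of mm39 from 80649420 to 80756286. The WT libraries held 3950, 4357 and 3492 of its counts, and the libraries labelled cKO held 3665, 3421 and 4001. The groups overlapped, with a mean of 88.5 ± 1.26 CPM for WT and one of 87.1 ± 1.02 CPM for the libraries labelled cKO (SD, n = 3 each). This is a log2 fold change of -0.02 with a standard error of 0.045 (edgeR, adjusted p = 0.731), and its 95% interval ran from 0.921-fold to 1.05-fold. A change of the size seen for *Acp5* therefore lay outside that interval. The genes with the most similar profile over the 6 libraries were *Ermp1*, *Ppfibp1* and *Tnrc6b*, with root mean square distances of 0.00798 to 0.0100 on the centred log2 CPM scale, and 8416 genes lay within 0.2 of it.

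Of the other NFAT factors, *Nfatc3* (97.5 ± 2.14 and 99.4 ± 2.67 CPM) and *Nfatc4* (128 ± 3.72 and 122 ± 3.58 CPM; SD, n = 3 each, WT first) did not pass the test either. *Nfatc2*, which shares the DNA-binding domain of the family, was called higher, from 62, 69 and 82 counts in WT to 524, 386 and 530 in the libraries labelled cKO (log2 fold change 2.80, adjusted p = 7.24e-10 by edgeR). Per kb of gene length *Nfatc1* was still 11.7 CPM in the libraries labelled cKO, against 1.07 for *Nfatc2*. In a list of 17 other NFAT, calcineurin and calcium pathway genes, all tested, 3 were called higher and 0 lower, where 6.56% and 4.64% of all tested genes were. The median log2 fold change of the list was 0.085 beside 0.0077 over all tested genes. *Camk4*, a calcium-dependent kinase that activates CREB, was among the 3 with a log2 fold change of 1.34, and *Ppp3ca*, a catalytic subunit of calcineurin, had 0.59, under the fold limit. *Irf8*, a repressor of the NFATc1 programme in osteoclast precursors that macrophages also express, was called higher with a log2 fold change of 2.72, and *Bcl6*, another repressor, had 0.39.

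*Oscar* (ENSMUSG00000054594), the receptor that binds collagen and signals through the FcRγ chain, was scarce. It lies on the minus strand of chromosome 7 of mm39 from 3612812 to 3619156 and had 26, 23 and 24 counts in the WT libraries. In the libraries labelled cKO it had 15, 12 and 15 counts. Every library labelled cKO thus lay below every WT library, as was the case for 23.9% of all tested genes. The level was 0.553 ± 0.0803 CPM in WT and 0.330 ± 0.0274 CPM (SD, n = 3 each) in the libraries labelled cKO, and the difference did not pass the test (log2 fold change -0.74, 95% interval -1.73 to 0.25, adjusted p = 0.240 by edgeR). With few counts the interval included both no change and a drop of more than the fold limit. Its nearest profiles were those of *Cers1*, *Pyroxd2* and *Arxes2*, at distances of 0.0480 to 0.0608.

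Most receptors and adaptors that act beside *Oscar* rose. Of 12 genes for precursor receptors and ITAM signalling, 10 were called higher and 0 lower, where 6.56% and 4.64% of all tested genes were. Their median log2 fold change was 2.53. The macrophage markers rose in the same libraries, and the part of macrophages in these rises was not tested. *Tnfrsf11a*, which encodes RANK, had 64, 96 and 65 counts in WT against 602, 657 and 783 in the libraries labelled cKO (log2 fold change 3.25, adjusted p = 5.42e-12 by edgeR). *Csf1r*, the receptor for M-CSF and one of the macrophage markers counted above, had 3.17, the kinase gene *Syk* 1.96 and the adaptor gene *Blnk* 3.12. The cytokines of the same axis were split. *Tnfsf11*, which encodes RANKL, rose with a log2 fold change of 1.39, and *Tnfrsf11b*, which encodes the RANKL decoy osteoprotegerin, had -0.82 (adjusted p = 3.53e-11 by edgeR), under the fold limit. *Csf1*, which encodes M-CSF, had -0.55 and *Il34*, the other ligand of its receptor, 0.70.

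*Calcr* (ENSMUSG00000023964) was not measurable. On the minus strand of chromosome 6 of mm39 from 3685680 to 3764714, it had 0, 0 and 2 counts in the WT libraries and 0 in each library labelled cKO. Both groups were at or under 3 counts per library, so no fold is given. A count of 0 allows up to 3 counts, that is 0.0605 to 0.0773 CPM depending on the library, or 0.121 to 0.155 CPM with 6 counts for pairs counted as 2, and these limits cover counting error only. Even values made up 63.4% to 65.7% of the counts between 1 and 10 in each library, which happens when both mates of a pair are counted, so the 2 counts can be a single read pair. *Calcrl*, the receptor of the same family that binds CGRP and adrenomedullin, was present at 10.9 ± 0.970 CPM in WT and 18.2 ± 0.971 CPM in the libraries labelled cKO (SD, n = 3 each; log2 fold change 0.74, adjusted p = 6.93e-06 by edgeR, under the fold limit). Of the RAMP coreceptors, which tune the ligand choice of both receptors, *Ramp3* had a log2 fold change of 0.44 (edgeR, adjusted p = 0.0616).

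The fusion genes *Dcstamp* and *Ocstamp* were both at the limit of detection. *Dcstamp* (ENSMUSG00000022303), on the plus strand of chromosome 15 of mm39 from 39609326 to 39624334, had 0 counts in every WT library and 2, 8 and 4 in the libraries labelled cKO. The groups did not overlap, and the mean of 0.112 CPM in the libraries labelled cKO was 1.65-fold the level of 3 counts per library in WT. This is no lower bound on a fold, since the counting error of the libraries labelled cKO was left out. With 6 counts as the floor, for pairs counted as 2, that mean lay under the floor and no fold can be given. With every gene that had a count admitted to the fit, 27649 in all, *Dcstamp* had an unadjusted p-value of 0.0194 and an adjusted p-value of 0.0727 by edgeR. *Ocstamp* (ENSMUSG00000027670), on the minus strand of chromosome 2 of mm39 from 165235680 to 165242325, had 18, 15 and 6 counts in WT and 22, 10 and 6 in the libraries labelled cKO. The groups overlapped almost fully, with a log2 fold change of 0.06 and a 95% interval of -1.25 to 1.37 (adjusted p = 0.952 by edgeR), so that changes as large as the fold limit in either direction lay within the interval at this depth. Its sign turned with WT replicate 3 left out (-0.22), with cKO replicate 1 left out (-0.59) and with limma-voom (-0.076). The closest profile, that of *Gm36975*, was 0.178 away, and it alone lay within 0.2.

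Of 15 fusion partners, chosen by function, 14 were tested and *Synb* was at 0 throughout. Of the 14, 2 were called higher and 3 lower, at a median log2 fold change of 0.12, where 6.56% and 4.64% of all tested genes were called. *Adam8*, a metalloprotease of fusing precursors, rose from 115 ± 17.7 to 749 ± 9.28 CPM and *Sirpa*, the receptor for CD47, from 122 ± 3.49 to 380.4 ± 9.88 CPM (SD, n = 3 each). *Cd44* and the tetraspanin gene *Cd81* had log2 fold changes of 0.16 and -0.29, both under the fold limit. *Adam8* and *Sirpa* are also expressed by macrophages, whose markers rose in the same libraries.

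*Atp6v0d2* (ENSMUSG00000028238), the d2 subunit of the membrane sector of the V-ATPase, had the largest fold change of the 5 tested genes. It lies on the minus strand of chromosome 4 of mm39 from 19876841 to 19922605. Its counts were 921, 1173 and 774 in WT, against 3113, 3492 and 3088 in the libraries labelled cKO. The lowest library labelled cKO lay above the highest WT library, at 68.0 against 23.6 CPM, a separation in this direction that 25.3% of all tested genes showed. The means were 21.3 ± 2.00 CPM in WT and 76.6 ± 10.2 CPM in the libraries labelled cKO (SD, n = 3 each), which is a log2 fold change of 1.84 with a standard error of 0.086 (edgeR, adjusted p = 9.45e-12). Leaving out single libraries gave values of 1.73 to 1.92. Per kb of gene length *Atp6v0d2* stood above 69.3% of the tested genes in WT and above 91.1% in the libraries labelled cKO. The nearest profiles over the 6 libraries were those of *Cdkn1c*, *Plcg2* and *Gpr137b-ps*, at distances of 0.0488 to 0.103.

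The ubiquitous counterpart of this subunit did not pass the test. *Atp6v0d1*, which encodes d1, was 50.4, 51.4 and 50.2 CPM per kb in the WT libraries and 51.6, 54.1 and 53.8 CPM per kb in the libraries labelled cKO (log2 fold change 0.07, adjusted p = 0.256 by edgeR). *Atp6v0d2* was 7.53, 8.70 and 7.34 CPM per kb in WT and 27.2, 32.3 and 25.0 CPM per kb in the libraries labelled cKO. The d2 transcript thus made up 13.0%, 14.5% and 12.8% of both d transcripts in WT and 34.6%, 37.4% and 31.7% in the libraries labelled cKO, with no overlap. In each of the 6 libraries d1 remained the more abundant.

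**Figure D2:**
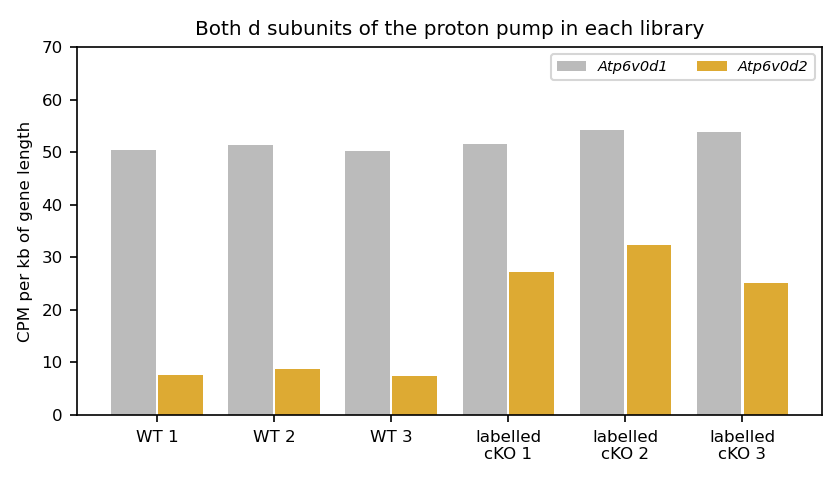
Length-scaled level (CPM per kb of gene length, linear axis from 0) of the d1 and d2 subunit genes of the V-ATPase in each of the 6 libraries, 1 pair of bars per library. *Atp6v0d1* stays between 50.2 and 54.1 CPM per kb, and *Atp6v0d2* lies between 7.34 and 8.70 in WT and between 25.0 and 32.3 in the libraries labelled cKO.

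Among 22 other V-ATPase genes 20 were tested, of which 1 was called higher and 1 lower, with a median log2 fold change of 0.27. Of all tested genes 6.56% were called higher and 4.64% lower. *Tcirg1*, which encodes the a3 subunit of the osteoclast and lysosomal pump, rose from 64.8 ± 3.38 to 157 ± 2.56 CPM (SD, n = 3 each; log2 fold change 1.27). *Atp6v0e2*, a small membrane subunit, fell from 6.45 ± 0.637 to 2.69 ± 0.116 CPM, a log2 fold change of -1.26 (edgeR, adjusted p = 6.74e-06). *Atp6v1a*, the catalytic A subunit, had a log2 fold change of 0.56 and *Atp6ap1*, an accessory subunit, 0.08. Without the fold limit, 12 of the 20 passed as higher and 1 as lower, where 20.1% and 19.2% of all tested genes did.

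*Acp5* (ENSMUSG00000001348) was moderately expressed and rose in the libraries labelled cKO. It lies on the minus strand of chromosome 9 of mm39 from 22038023 to 22047007. WT gave 245, 335 and 190 counts, whereas the libraries labelled cKO gave 551, 544 and 621. No library labelled cKO overlapped with WT, where the highest was replicate 2, and 25.3% of all tested genes showed a separation in this direction. The level went from 5.70 ± 0.953 CPM in WT to 13.5 ± 0.336 CPM in the libraries labelled cKO (SD, n = 3 each), which is a log2 fold change of 1.24 with a standard error of 0.13 (edgeR, adjusted p = 3.54e-07). With single libraries left out it stayed between 1.14 and 1.37. The antisense gene *6530413G14Rik* overlaps *Acp5* and had 1 to 19 counts per library, and the strand setting of the counting is not given in the sources used here. Its nearest profiles were those of *Sorbs2*, *Saa1* and *Camk1d*, at distances of 0.0635 to 0.0816.

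*Acp5* is transcribed from 3 starts in the RefSeq annotation of GRCm38.p6, and the gene count pools them. The 3 start regions are shown because *Acp5* rose while *Nfatc1* did not, and that of *Oscar*, also an NFATc1 target, because it did not rise with *Acp5*. RefSeq start regions were matched for *Oscar*, *Calcr* and *Acp5*, 3 of the 7 genes. *Nfatc1* was left out of this search, so nothing is said here about its start regions. Each runs from 250 bases before to 50 after the start, 5′ to 3′ on the minus strand, and capitals mark matches on either strand to the letters searched, which were TGANTCA for AP-1, GGAAA for the NFAT core, TCATGTG for the M-box of MITF and TFE factors, CACGTG for the E-box and GAGGAAG for the PU.1 core.
*Acp5*, start 1, chr9:22135697-22135996 (GRCm38.p6): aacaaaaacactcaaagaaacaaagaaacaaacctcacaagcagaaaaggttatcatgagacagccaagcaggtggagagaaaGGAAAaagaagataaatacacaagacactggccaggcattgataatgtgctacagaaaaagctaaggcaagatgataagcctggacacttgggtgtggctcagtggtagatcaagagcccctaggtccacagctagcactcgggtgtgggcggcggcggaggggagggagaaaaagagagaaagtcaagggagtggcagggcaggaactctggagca
*Acp5*, start 2, chr9:22131816-22132115 (GRCm38.p6): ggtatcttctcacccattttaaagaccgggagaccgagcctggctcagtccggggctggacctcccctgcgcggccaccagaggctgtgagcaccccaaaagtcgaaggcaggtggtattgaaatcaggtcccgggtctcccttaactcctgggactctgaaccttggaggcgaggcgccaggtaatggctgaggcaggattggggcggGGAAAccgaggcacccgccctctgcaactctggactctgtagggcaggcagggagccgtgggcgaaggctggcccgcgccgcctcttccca
*Acp5*, start 3, chr9:22130549-22130848 (GRCm38.p6): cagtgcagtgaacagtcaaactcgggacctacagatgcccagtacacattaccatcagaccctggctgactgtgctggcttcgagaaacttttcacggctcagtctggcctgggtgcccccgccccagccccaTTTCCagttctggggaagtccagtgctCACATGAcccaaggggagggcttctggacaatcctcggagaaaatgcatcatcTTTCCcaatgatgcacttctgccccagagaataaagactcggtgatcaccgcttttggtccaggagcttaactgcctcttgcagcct
*Oscar*, chr7:3616108-3616407 (GRCm38.p6): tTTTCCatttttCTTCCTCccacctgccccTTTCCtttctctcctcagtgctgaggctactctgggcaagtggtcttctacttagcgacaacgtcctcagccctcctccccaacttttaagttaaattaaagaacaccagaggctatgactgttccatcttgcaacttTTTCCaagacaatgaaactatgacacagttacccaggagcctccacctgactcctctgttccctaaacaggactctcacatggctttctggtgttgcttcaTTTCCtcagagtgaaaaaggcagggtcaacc

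The third *Acp5* start region held 3 matches, namely 2 NFAT cores (TTTCC on the strand shown) and the only M-box found in these regions, read as CACATGA from base 161 to base 167. The other *Acp5* regions held a single NFAT core each. The *Oscar* region held 4 NFAT cores and a PU.1 core read as CTTCCTC, and of the 2 *Calcr* regions the upstream one held an NFAT core and the other no match. No AP-1 or E-box letters were found. Over the 32851 start regions searched, 61.3% held an NFAT core, 13.6% a PU.1 core, 7.81% an AP-1 motif, 7.15% an E-box and 3.77% an M-box. The NFAT core is thus common and the M-box is not. *Mitf*, *Tfe3*, *Tfeb* and *Tfec*, which encode the factors that read the M-box, had log2 fold changes of 0.04, 0.24, 1.07 and 1.99, and *Tfeb* and *Tfec* were called higher. These 4 were picked after their values were seen. Whether any of the letters found is bound, or bears on the change of *Acp5*, was not tested.

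Across 18 other osteoclast transcription factors, all tested, 5 were called higher and 0 lower, at a median log2 fold change of 0.16. Of all tested genes 6.56% were called higher and 4.64% lower. Without the fold limit, 8 of the 18 passed as higher and 3 as lower, where 20.1% and 19.2% of all tested genes did. The macrophage markers rose in the same libraries, and the part of macrophages in these rises was not tested. *Spi1*, which encodes PU.1, and *Prdm1*, a repressor that lifts the block on *Nfatc1* targets, had log2 fold changes of 2.99 and 3.46. *Prdm1* was scarce in WT, with 12, 10 and 12 counts against 91, 129 and 142 in the libraries labelled cKO. The more abundant *Fosl2* and *Bhlhe40* had -0.01 and -0.52.

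The resorption genes that accompany *Acp5* in a mature osteoclast were split, with 7 of 15 higher and 7 lower when the fold limit was left off. Of all tested genes, 20.1% passed as higher and 19.2% as lower in that way. With the limit, 2 of the 15, all tested, were called higher and 2 lower, where 6.56% and 4.64% of all tested genes were. The median log2 fold change of the 15 was -0.07. *Ctsb*, a lysosomal protease found in most cells, and *Tcirg1* were the 2 higher genes, with *Ctsb* at a log2 fold change of 1.01. *Mmp9*, a gelatinase abundant in osteoclasts, fell from 944, 929 and 1007 counts in WT to 148, 94 and 149 in the libraries labelled cKO (log2 fold change -2.83, adjusted p = 5.06e-11 by edgeR). *Car2*, the carbonic anhydrase that supplies protons for resorption, fell from 81, 128 and 98 counts to 6, 0 and 8 (log2 fold change -4.36, adjusted p = 2.08e-06 by edgeR). *Ctsk*, the collagenase of the osteoclast, was abundant in both genotypes and had -0.41 (adjusted p = 3.87e-05 by edgeR), and *Mmp14*, also made by stromal cells, had -0.41, both under the fold limit.

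**Figure D3:**
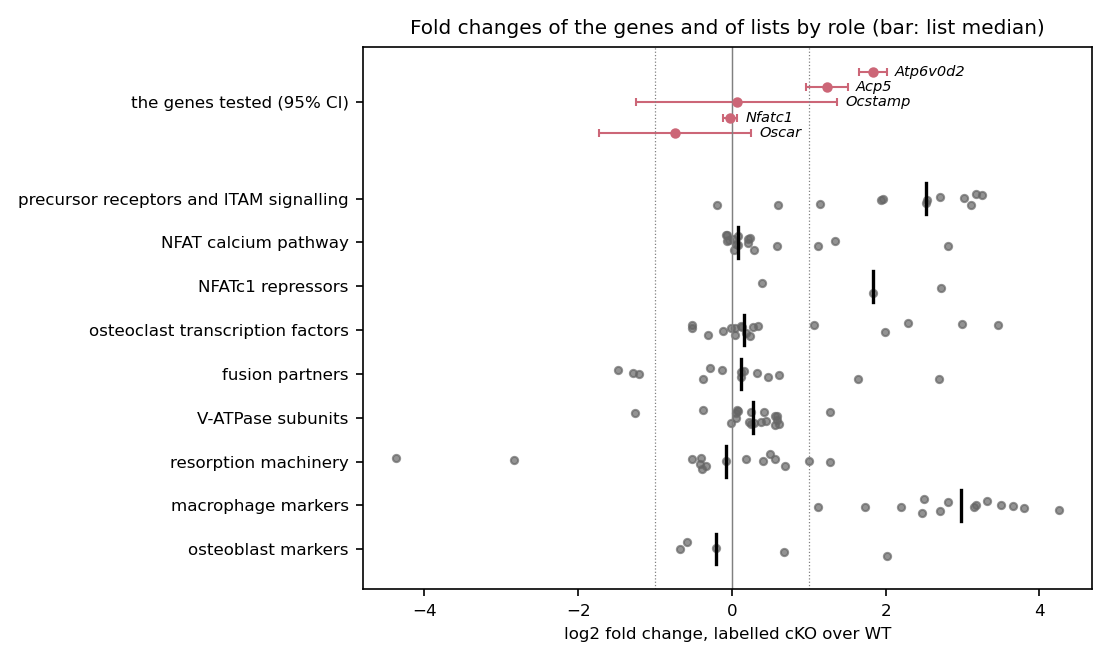
Log2 fold changes between the libraries labelled cKO and WT (horizontal axis) for the 5 tested genes with their 95% intervals and, as grey points, for the tested genes of 9 lists by role, with a black bar at each list's median and dotted lines at the fold limit. *Atp6v0d2* (1.84) and *Acp5* (1.24) lie below the medians of the precursor receptors (2.53) and of the macrophage markers (2.98), and the resorption genes centre near 0 (-0.07).

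Scaled to gene length, the 7 genes fell into a high and a low set. In WT the order was *Nfatc1* (11.8 ± 0.169 CPM per kb), *Atp6v0d2* (7.86 ± 0.737), *Acp5* (2.81 ± 0.470), *Oscar* (0.299 ± 0.0435), *Ocstamp* (0.0781 ± 0.0338), *Calcr* and *Dcstamp* (SD, n = 3 each). The libraries of neighbouring genes did not overlap down to *Ocstamp*, and *Calcr* and *Dcstamp* could not be ranked. In the libraries labelled cKO *Atp6v0d2* came first (28.2 ± 3.75), followed by *Nfatc1* (11.7 ± 0.137), *Acp5* (6.64 ± 0.165) and *Oscar* (0.178 ± 0.0148). *Ocstamp* (0.0826 ± 0.0547) and *Dcstamp* (0.0421 ± 0.0299) overlapped there, and *Calcr* was at 0.

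**Figure D4:**
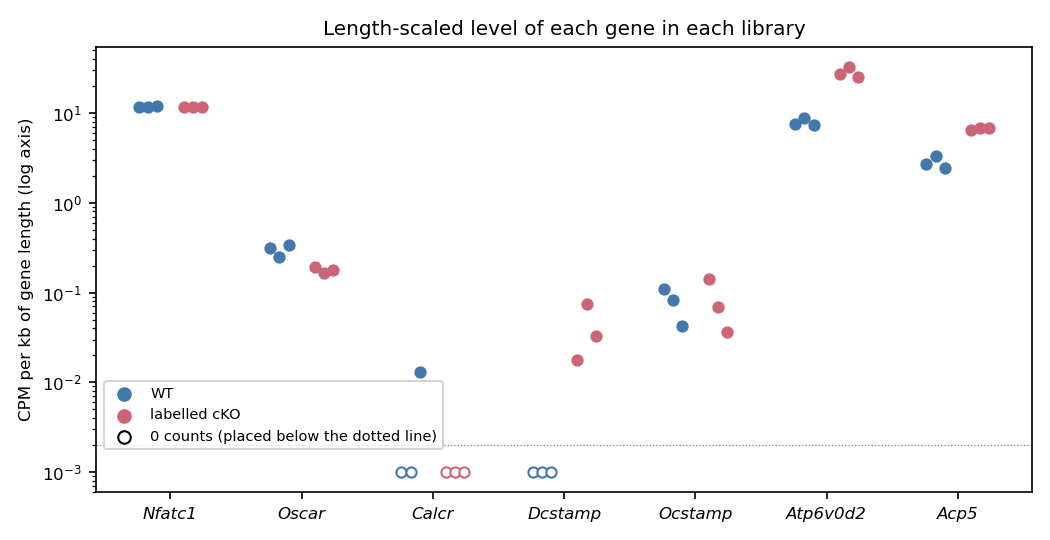
Length-scaled level of each gene in each library (CPM per kb, log axis), with WT in blue and the libraries labelled cKO in red; open circles below the dotted line are libraries with 0 counts and have no position on the axis. *Nfatc1*, *Atp6v0d2* and *Acp5* lie at 2.41 CPM per kb or higher in every library, and the other 4 genes at 0.335 or lower.

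Because macrophage markers moved with the 2 genes that rose, each of the 5 tested genes was also set against the summed macrophage markers of its library. The sum itself rose and was mostly *Lyz2* (986 ± 57.1 CPM in WT, 4518 ± 114 CPM in the libraries labelled cKO; SD, n = 3 each), so a gene that rose less than the sum has a lower ratio by construction, and the ratios are given as a description with no test. *Atp6v0d2* went from 16.5 to 11.6 CPM per 1000 CPM of markers (geometric means, log2 difference -0.52) and *Acp5* from 4.39 to 2.05 (-1.10), with no overlap of the groups for either. Both thus rose by less than the marker sum. For *Nfatc1* the difference was -2.38, for *Oscar* -3.10 and for *Ocstamp* -2.39. Against *Csf1r* alone the differences were -1.33 for *Atp6v0d2*, -1.91 for *Acp5*, -3.19 for *Nfatc1*, -3.91 for *Oscar* and -3.20 for *Ocstamp*. Set against 7 summed osteoblast markers (5571 to 6207 CPM in WT, 3609 to 3890 CPM in the libraries labelled cKO), they were 2.49 for *Atp6v0d2*, 1.91 for *Acp5*, 0.63 for *Nfatc1*, 0.61 for *Ocstamp* and -0.09 for *Oscar*. That sum was almost all *Col1a1* (5802 ± 315 and 3650 ± 139 CPM, log2 fold change -0.67). Without the fold limit, 2 of the 5 tested osteoblast markers passed as higher (*Ibsp* 2.01, which was called, and *Alpl* 0.68). Another 3 passed as lower, among them *Col1a1* and *Sp7* (-0.59). The ratios to this sum thus describe the genes against *Col1a1* and not against the osteoblast markers as a group. *Atp6v0d2* and *Acp5* also rose in CPM without any reference. Neutrophil and lymphocyte markers were nearly absent, with summed levels of 0.850 to 1.47 CPM in WT and 3.13 to 3.57 CPM in the libraries labelled cKO for the former and 0 to 0.285 CPM over all 6 for the latter. The neutrophil sum was mostly *S100a8*, the only neutrophil marker tested, which was called higher (log2 fold change 1.61, adjusted p = 4.35e-05 by edgeR).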

How the data were processed

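RNA libraries from 6 stimulated primary cultures, 3 WT and 3 labelled cKO, were analysed. The authors trimmed paired-end reads from a directional kit, aligned them to mm39 with HISAT2 (2.0.5 in the submitters' processing notes) and counted them on genes with featureCounts (1.55.0-p3 in the same notes, another release in the paper). They deposited raw counts per gene and the gene length in bases, without normalization. From these counts, genes passing filterByExpr were scaled by TMM and compared by genotype with edgeR 4.0.16 in R 4.3.3 (estimateDisp, glmQLFit, glmQLFTest), with p-values adjusted over 17146 genes. CPM use the TMM-scaled totals. Standard errors were derived from the fold change and the F statistic. Likeness is the root mean square distance of centred log2 CPM with a prior count of 2. Start regions came from RefSeq on GRCm38.p6 and were not placed on mm39.

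The genes and lists were chosen with earlier results of these data known. All 7 genes were named, together with *Gsdmd*, *Xist* and *Ddx3y*, the 2 most abundant and the 2 most changed tested genes of each list, direct counterparts and the 3 nearest profiles. *Ctsk*, the M-box factors and the osteocyte markers were named outside this rule, with their values seen. Alternatives were DESeq2 1.42.0, limma-voom (limma 3.58.1), other scalings and filters, no fold limit, halved counts, a replicate block and each library left out. The permutation test planned for the ratios to marker sums is not reported, since the sums themselves differed between genotypes. The procedure was tested on simulated data.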

Additional observations from a re-analysis of the deposited data

How the results depend on the processing

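*Atp6v0d2* and *Acp5* were the 2 genes called higher, and 0 of the 7 were called lower, under all 15 alternatives, with log2 fold changes of 1.73 to 1.92 and 1.14 to 1.37. *Nfatc1* stayed between -0.045 and -0.0014 and *Oscar* between -0.86 and -0.66, neither past the test. *Ocstamp* reversed without WT replicate 3 (-0.22), without cKO replicate 1 (-0.59) and with limma-voom (-0.076). The cause was not tested. Without single libraries its range was -0.59 to 0.43. It could not be fitted with at least 10 counts in every library or with halved counts, where too few were left. Over all genes, 1124 higher and 796 lower calls became 3445 and 3285 with no limit on the fold change, by that setting's construction, and 522 were lower with at least 10 counts in every library, where fewer genes were tested. Without single libraries the counts were 1027 to 1153 higher and 773 to 827 lower, and the 7 genes kept 2 and 0. Correlations of same-numbered deviations were -0.0103 to 0.00228 and showed no sign of pairing by replicate number. They cannot decide whether replicates were paired, since deviations centred within 3 libraries depend on each other. The replicate block gave 1087 higher and 772 lower genes.

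Per summed macrophage level, leaving out single libraries gave log2 differences of -2.41 to -2.34 for *Nfatc1*, -3.23 to -3.01 for *Oscar*, -2.92 to -1.89 for *Ocstamp*, -0.61 to -0.42 for *Atp6v0d2* and -1.24 to -0.98 for *Acp5*. Per summed osteoblast markers, mostly *Col1a1*, the sign reversed for *Nfatc1* (0.63), *Ocstamp* (0.61), *Atp6v0d2* (2.49) and *Acp5* (1.91). Depth limits *Oscar*, *Ocstamp*, *Dcstamp* and *Calcr*.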
